A study of Mus musculus with 6 samples.

Results

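The 10 genes described here hold naive T cells in their resting state and were followed through activation: Tcf7, Lef1, Foxo1, Foxo3, Foxp1, Bach2, Satb1, Tob1, Btg1 and Btg2. They were taken as the rows whose NCBI gene numbers carry these symbols, and all 10 were found among the 18446 genes of the table. All 10 also had a mean of at least 1 FPKM (fragments scaled by transcript length and by the library's total) over the 6 libraries, as did 10347 genes in all. Flow cytometry was used to sort naive CD4+CD44lo T cells out of the spleens and lymph nodes of C57BL/6 mice aged 6 to 8 weeks, and the cells were kept in RPMI medium with antibodies to CD3 and CD28, which stand in for antigen and costimulation. RNA was sequenced on the Illumina HiSeq platform. The 6 groups were cells labelled Zak-/- at 0, 6 and 48 h and wild-type (WT) cells at 0, 6 and 48 h, all given the same antibodies at 6 and 48 h. Each group had 1 library, so no difference between single libraries has a replicate check or a test. The label alone was tested, with the libraries of each time as a pair.

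Zak, whose gene is Map3k20, is a kinase at the head of stress-activated kinase cascades. The labels give the genotype as Zak-/-, while their growth protocol speaks of a deficiency restricted to T cells. The driver of such a deletion was not given in the sources used here. Map3k20 stood at 0.10, 0.10 and 1.61 FPKM at 0, 6 and 48 h in the libraries labelled Zak-/- and at 0.17, 0.19 and 1.35 FPKM in the WT libraries. At 48 h its level in the library labelled Zak-/- was the higher of the pair, which goes against the label, so each library is named here by its label. A gene-level value does not show which exons were read, and how many mice were pooled was not given.

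A naive T cell is held small, long-lived and out of the cell cycle by factors that must be maintained actively. TCF-1 (Tcf7) and LEF-1 bind TCF sites in T cell genes, the FOXO factors keep homing and survival receptors on until antigen receptor signalling through AKT sends them out of the nucleus, and FOXP1, BACH2 and SATB1 restrain or organise the genes of activation and differentiation. The BTG and TOB proteins act on RNA: they recruit the CCR4-NOT deadenylase to messages, which shortens poly(A) tails, and several of them slow proliferation.

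Of the 10 genes, 6 were at least 2-fold lower at 48 h than at 0 h under both labels and none was higher. Of all genes of mean 1 FPKM or more, 12.0% were lower and 18.4% higher in the libraries labelled Zak-/-. In the WT libraries 12.3% were lower and 17.8% higher. Of the 6, Tob1 had already passed 2-fold at 6 h, when 1.52% of all genes were lower in the libraries labelled Zak-/- and 1.39% in the WT libraries. In order of the change at 48 h in the libraries labelled Zak-/- they were Satb1, Tob1, Tcf7, Lef1, Btg2 and Foxo1. Foxo3, Foxp1, Bach2 and Btg1 did not pass 2-fold at either time. No member differed 2-fold between the labels at any time, as did at most 1.80% of all genes in either direction. Folds and differences here are on the scale of log2(FPKM + 1), which understates the change of low genes, and in bulk RNA fewer cells of a type and less RNA per cell cannot be told apart.

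All 6 libraries held the 8 T cell markers, whose summed FPKM lay between 1960 and 2211. Within that sum Cd247, the gene of the CD3 zeta chain, was 3.29-fold lower at 48 h than at 0 h in the libraries labelled Zak-/- and 4.03-fold lower in the WT libraries. Cd44, low in the sorting gate, stood at 1.5 FPKM in the 0 h library labelled Zak-/- and 1.82 FPKM in the 0 h WT library. The sum of 6 activation and cycling markers was 37.5, 512 and 542 FPKM at 0, 6 and 48 h in the libraries labelled Zak-/- and 41.1, 546 and 604 FPKM in the WT libraries. That sum joins genes of different courses. Under both labels the cycling genes Mki67, Top2a and Ccna2 each lay at 1.02 FPKM or less at 6 h and at 75.2 FPKM or more at 48 h. Cd69, Il2ra and Myc were lower at 48 h than at 6 h under both labels. Of other cell types, 6 B cell markers summed to 7.23, 5.58 and 7.47 FPKM in the libraries labelled Zak-/- and 3.37, 4.90 and 5.49 FPKM in the WT libraries, with none of the 6 at 0 in any library. That sum was higher in the library labelled Zak-/- at each time. The 7 myeloid markers summed to 7.78, 4.8 and 2.27 FPKM in the libraries labelled Zak-/- and 9.53, 6.95 and 1.01 FPKM in the WT libraries, the 2 CD8 genes to between 8.88 and 12.8 FPKM, and the 4 NK cell markers to at most 0.85 FPKM. Of the 2 CD8 genes, Cd8b1 made most of the sum at 8.11 to 12.0 FPKM, and Cd8a lay between 0.50 and 1.02 FPKM. The 3 of 5 erythroid markers analysed here summed to at most 1.84 FPKM. The part of these other cells in any result was not tested. The sum of FPKM over all genes was 496045 to 546113 per library, which says nothing of depth, so the depth is unknown.

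At rest the 10 genes spanned a wide range. FPKM is per length, so their levels can be ordered within a library: at 0 h the order was Tcf7, Satb1, Lef1, Btg1, Btg2, Foxp1, Tob1, Bach2, Foxo1 and Foxo3 under both labels. Together they summed to 2273, 1565 and 713 FPKM at 0, 6 and 48 h in the libraries labelled Zak-/- and to 2336, 1557 and 693 FPKM in the WT libraries, and Tcf7 alone made 43.3% of that sum at 0 h in the library labelled Zak-/- and 43.7% in the WT library. By 48 h the order had become Tcf7, Btg1 and Lef1, then Foxp1 and Satb1 in either order, then Bach2, Btg2, Foxo1, Foxo3 and Tob1. Satb1, the second at 0 h, was the fourth or the fifth at 48 h, and Tob1, the seventh at 0 h, was the last. With 1 library per group the spread of a level is not known, so whether neighbours in this order differ cannot be said.

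**Figure D1:**
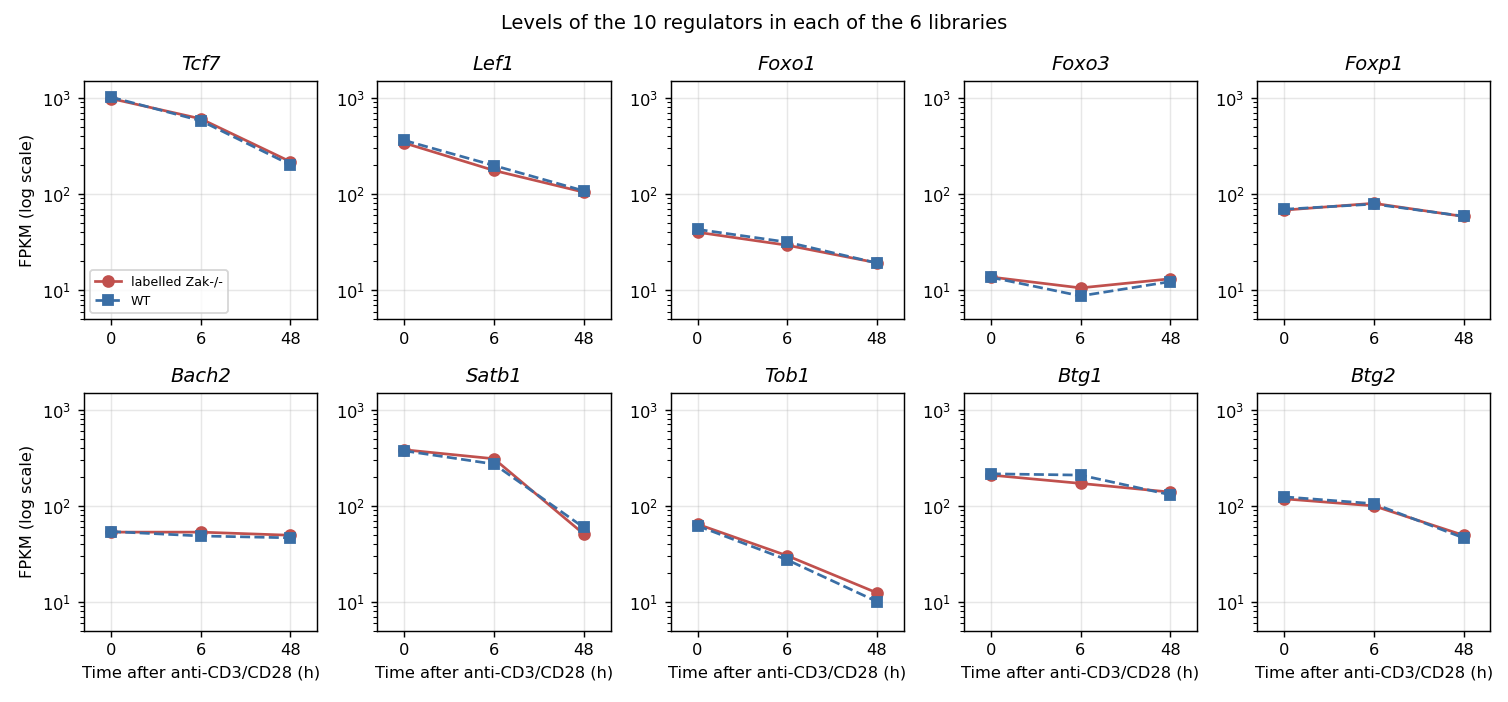
FPKM of each of the 10 genes (log axis) at 0, 6 and 48 h, with the libraries labelled Zak-/- and the WT libraries as separate lines and 1 library per point. The lines of Satb1, Tob1, Tcf7 and Lef1 end furthest below their 0 h points, those of Bach2, Foxp1 and Foxo3 span at most 1.51-fold, and the points of the labels lie close together throughout.

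Between 6 h and 0 h, 1 of 10 members was at least 2-fold lower under each label and none was higher, where 1.52% of all genes of mean 1 FPKM or more were lower in the libraries labelled Zak-/- and 1.39% in the WT libraries. Genes at least 2-fold higher made 9.08% in the libraries labelled Zak-/- and 8.93% in the WT libraries. The members' median log2 difference at 6 h was -0.33 in the libraries labelled Zak-/-, where the median of all genes was -0.08, and -0.44 in the WT libraries, where it was -0.06.

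Between 48 h and 0 h, 6 of 10 were at least 2-fold lower under each label and none was higher, against a background of 12.0% lower and 18.4% higher in the libraries labelled Zak-/- and 12.3% lower and 17.8% higher in the WT libraries. The members' median was -1.13 in the libraries labelled Zak-/-, beside 0.06 for all genes, and -1.26 in the WT libraries, beside 0.00 for all genes. Both comparisons of a label use its own 0 h library, so the 6 h and 48 h differences share it.

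Between 48 h and 6 h, 4 of 10 (Satb1, Tcf7, Tob1 and Btg2) were at least 2-fold lower under each label and none was higher, with 6.55% of all genes lower and 10.8% higher in the libraries labelled Zak-/- and 6.14% lower and 9.32% higher in the WT libraries. Btg2 lay on the threshold there in the libraries labelled Zak-/-, at a log2 difference of -1.001, and did not pass it with a pseudocount of 5 or after upper quartile scaling.

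**Figure D2:**
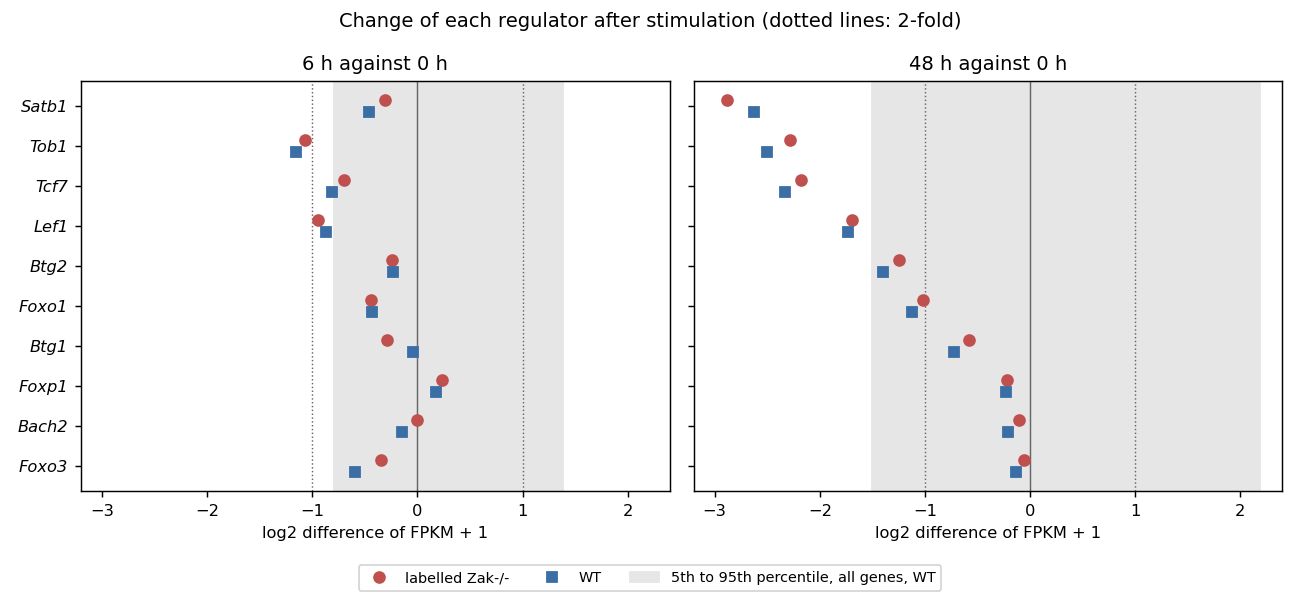
Difference of log2(FPKM + 1) from 0 h for each of the 10 genes at 6 h and at 48 h, with the libraries labelled Zak-/- and the WT libraries as separate marks, the 2-fold threshold as dotted lines and the 5th to 95th percentile of all genes in WT as a grey band. At 6 h Tob1 is the gene past the line (-1.07 in the libraries labelled Zak-/- and -1.15 in the WT libraries), while at 48 h 6 genes lie past it, with Satb1 lowest at -2.89 in the libraries labelled Zak-/- and -2.63 in the WT libraries.

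Among the TCF and LEF factors, Tcf7 was the highest of the 10 genes in every library. Tcf7 (chr11:52246527-52283383, GRCm38.p6, the RefSeq release of mm10), whose product keeps T cells in a stem-like, undifferentiated condition, stood at 985, 607 and 217 FPKM at 0, 6 and 48 h in the libraries labelled Zak-/- and at 1021, 580.1 and 202 FPKM in the WT libraries. Its level was lower at each later time under both labels, and at 48 h it was 4.52-fold lower than at 0 h in the libraries labelled Zak-/- and 5.03-fold lower in the WT libraries. RefSeq places Skp1 across part of the Tcf7 span, and the strand used in counting was not given. Skp1 itself stood at 75.2, 75.1 and 116 FPKM in the libraries labelled Zak-/- and 75.6, 97.6 and 107 FPKM in the WT libraries, so the overlapping gene had its highest level at 48 h.

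Lef1 (chr3:131110297-131224357), the partner of TCF-1 in thymocyte development and in naive cells, stood at 340.0, 176 and 105 FPKM in the libraries labelled Zak-/- and at 362, 198 and 108 FPKM in the WT libraries. Its log2 difference at 6 h, -0.95 in the libraries labelled Zak-/- and -0.87 in the WT libraries, stopped short of 2-fold, and at 48 h it was 3.22-fold lower than at 0 h in the libraries labelled Zak-/- and 3.33-fold lower in the WT libraries. The ratio of Tcf7 to Lef1 was 2.90, 3.45 and 2.07 at 0, 6 and 48 h in the libraries labelled Zak-/- and 2.82, 2.93 and 1.87 in the WT libraries. Thus Tcf7 exceeded Lef1 in every library, by less at 48 h than at rest.

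Among 10 genes of TCF and LEF partners, 9 had a mean of at least 1 FPKM. At 48 h, 4 of the 9 were 2-fold lower and 1 was higher than at 0 h in the libraries labelled Zak-/-, where 12.0% of all genes were lower and 18.4% higher. In the WT libraries 3 of the 9 were lower and 1 higher, where 12.3% of all genes were lower and 17.8% higher. The lower genes under both labels were Bcl9l, a coactivator of beta-catenin, at 2.14-fold in the libraries labelled Zak-/- and 2.51-fold in the WT libraries, and the Groucho family members Tle4, at 2.01-fold in the libraries labelled Zak-/- and 2.53-fold in the WT libraries, and Tle5, at 2.20-fold in the libraries labelled Zak-/- and 2.02-fold in the WT libraries. Tle1 reached 2.005-fold lower in the libraries labelled Zak-/- and 1.91-fold in the WT libraries. The higher gene was Tle3, another Groucho corepressor, 3.49-fold higher in the libraries labelled Zak-/- and 3.06-fold higher in the WT libraries. The ratio of Tle5, the short family member that lacks the repeats of the others, to Tle3 was 14.0, 3.90 and 1.75 in the libraries labelled Zak-/- and 12.7, 4.44 and 1.998 in the WT libraries. Ctnnb1, which encodes beta-catenin, stayed between 81.3 and 94.7 FPKM in all 6 libraries.

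The forkhead members divided by gene. Foxo1 (chr3:52268337-52350109), which maintains Il7r and Klf2 in resting T cells, stood at 40.1, 29.4 and 19.3 FPKM in the libraries labelled Zak-/- and at 42.9, 31.6 and 19.2 FPKM in the WT libraries. It was 2.03-fold lower at 48 h than at 0 h in the libraries labelled Zak-/- and 2.18-fold lower in the WT libraries, and with a pseudocount of 5 FPKM it did not pass 2-fold under either label (log2 differences of -0.89 in the libraries labelled Zak-/- and -0.99 in the WT libraries). Foxo3 (chr10:42181845-42276695), its close relative in stress and survival control, stood at 13.7, 10.6 and 13.1 FPKM in the libraries labelled Zak-/- and at 13.6, 8.72 and 12.3 FPKM in the WT libraries. Its lowest level under each label was thus at 6 h, with log2 differences from 0 h of -0.35 in the libraries labelled Zak-/- and -0.59 in the WT libraries, and at 48 h of -0.06 in the libraries labelled Zak-/- and -0.14 in the WT libraries.

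Foxo1 and Foxo3 differ in the bases before their starts, and these are shown because the genes moved differently at 48 h. Below are the 250 bases before each start in RefSeq (GRCm38.p6), Foxo1 at chr3:52268087-52268336 on the plus strand and Foxo3 at chr10:42276696-42276945 on the minus strand, written on the gene's strand with capitals marking any of 6 short motifs on either strand: TGTTTAC (forkhead), CTTTGA (TCF and LEF), TGACGT (part of a CRE site), CCAAT (read as ATTGG on the other strand), TATAAA (the core of a TATA box) and TGACTCA (BACH and AP-1).
Foxo1: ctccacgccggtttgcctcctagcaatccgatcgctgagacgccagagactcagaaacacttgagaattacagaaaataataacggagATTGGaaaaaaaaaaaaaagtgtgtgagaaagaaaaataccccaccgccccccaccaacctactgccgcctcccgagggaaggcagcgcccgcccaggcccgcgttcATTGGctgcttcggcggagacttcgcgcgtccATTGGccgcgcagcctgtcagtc
Foxo3: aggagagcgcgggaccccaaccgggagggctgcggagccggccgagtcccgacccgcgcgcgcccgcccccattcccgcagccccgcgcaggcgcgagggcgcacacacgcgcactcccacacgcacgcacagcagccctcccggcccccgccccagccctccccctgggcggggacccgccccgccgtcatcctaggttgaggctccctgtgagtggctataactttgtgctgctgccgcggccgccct
Foxo1's window held the CCAAT motif on the minus strand in 3 places, 162, 55 and 23 bases before the start, and Foxo3's held none of the 6 motifs. Of the 32851 promoter windows in the table, 33.8% held the CCAAT motif, 13.8% the TCF and LEF motif, 12.4% the TATA motif, 6.47% the CRE motif, 4.46% the BACH and AP-1 motif and 3.17% the forkhead motif. Over the 10638 windows of genes of mean 1 FPKM or more these shares were, in the same order, 36.2%, 10.4%, 6.11%, 10.5%, 2.92% and 2.22%. Of the 20 windows of the 10 members, since some genes have several starts, 6 held the CCAAT motif, 4 the TATA motif, 3 the TCF and LEF motif, 3 the CRE motif, 1 the forkhead motif and none the BACH and AP-1 motif. No motif of one kind overlapped one of another. A match to a few letters describes the window and is no sign that a factor bound there.

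The third FOXO gene of T cells, Foxo4, stood at 42.4, 24.7 and 8.74 FPKM in the libraries labelled Zak-/- and at 36.8, 20.9 and 7.94 FPKM in the WT libraries. At 48 h it was 4.45-fold lower than at 0 h in the libraries labelled Zak-/- and 4.23-fold lower in the WT libraries. The sum of the 3 FOXO genes was 96.2, 64.6 and 41.2 FPKM in the libraries labelled Zak-/- and 93.4, 61.3 and 39.4 FPKM in the WT libraries. Within that sum Foxo3's share was 14.3%, 16.4% and 31.9% in the libraries labelled Zak-/- and 14.6%, 14.2% and 31.2% in the WT libraries. Foxo3 was thus the smallest of the 3 at rest and ahead of Foxo4 at 48 h.

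Foxp1 (chr6:98925342-99522746), which keeps naive T cells quiescent and counters FOXO1 at the Il7r gene in mouse T cells, stood at 68.15, 80.2 and 58.5 FPKM in the libraries labelled Zak-/- and at 69.5, 78.7 and 58.9 FPKM in the WT libraries. It was the one member whose log2 difference at 6 h lay above 0 under both labels, at 0.23 in the libraries labelled Zak-/- and 0.18 in the WT libraries, and its values over the 6 libraries spanned 1.36-fold. The ratio of Foxp1 to Foxp4, a relative of less settled role in these cells, was 3.01, 1.36 and 1.099 in the libraries labelled Zak-/- and 2.92, 1.74 and 1.16 in the WT libraries. Foxp4 itself was 2.29-fold higher at 48 h than at 0 h in the libraries labelled Zak-/- and 2.08-fold higher in the WT libraries. Foxp3, the factor of regulatory T cells, stood at 16.0, 44.7 and 7.65 FPKM in the libraries labelled Zak-/- and at 14.1, 40.3 and 5.90 FPKM in the WT libraries, and so was high at 6 h under both labels. Regulatory T cells had no list among the cell type markers, and their part in these levels was not tested. RefSeq places non-coding records over parts of Foxp1, Foxo3 and Bach2, and these were not analysed here.

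Bach2 and Satb1 marked the extremes of the set. Bach2 (chr4:32238413-32586109), a repressor that competes with AP-1 and restrains effector genes, stood at 53.1, 53.1 and 49.3 FPKM in the libraries labelled Zak-/- and at 53.9, 48.5 and 46.35 FPKM in the WT libraries. All 6 values lay within 1.16-fold, the narrowest span of the 10, and its log2 difference at 48 h was -0.11 in the libraries labelled Zak-/- and -0.21 in the WT libraries. Bach1, its ubiquitous paralog, stood at 8.70, 15.9 and 3.24 FPKM in the libraries labelled Zak-/- and at 9.36, 14.3 and 4.42 FPKM in the WT libraries.

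Satb1 (chr17:51736187-51833290), which organises chromatin loops in thymocytes and naive T cells, stood at 382, 308 and 50.8 FPKM in the libraries labelled Zak-/- and at 373, 271 and 59.4 FPKM in the WT libraries. The 6 h values were within 1.5-fold of those at 0 h, while at 48 h Satb1 was 7.39-fold lower than at 0 h in the libraries labelled Zak-/- and 6.19-fold lower in the WT libraries, the widest change of the 10 at that time. The ratio of Satb1 to Bach2 was 7.19, 5.80 and 1.03 at 0, 6 and 48 h in the libraries labelled Zak-/- and 6.91, 5.59 and 1.28 in the WT libraries. Satb1 thus stood well above Bach2 at 0 and 6 h and close to it at 48 h. Of 12 paralogs of the members, 7 had a mean of at least 1 FPKM. At 48 h 2 of these were at least 2-fold lower than at 0 h under each label, Foxo4 with Bach1 in the libraries labelled Zak-/- and Foxo4 with Foxp3 in the WT libraries. Foxp4 was higher under both, joined by Tob2 in the libraries labelled Zak-/-. The shares of all genes were 12.0% lower and 18.4% higher in the libraries labelled Zak-/-, and 12.3% and 17.8% in the WT libraries.

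The antiproliferative BTG and TOB members all had lower FPKM at 48 h than at 0 h, by different amounts. Tob1 (chr11:94209842-94215495), which slows T cell proliferation and is known as a brake on activation, stood at 64.3, 30.2 and 12.4 FPKM in the libraries labelled Zak-/- and at 61.85, 27.3 and 10.1 FPKM in the WT libraries. At 6 h it was 2.09-fold lower than at 0 h in the libraries labelled Zak-/- and 2.22-fold lower in the WT libraries, and at 48 h 4.87-fold lower in the libraries labelled Zak-/- and 5.68-fold lower in the WT libraries. The 6 h value in the libraries labelled Zak-/- lay close to the threshold: its log2 difference was -0.98 with a pseudocount of 5 FPKM and -0.9998 after median ratio scaling.

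Btg2 (chr1:134074865-134079155), a p53 target that slows the cell cycle and binds the deadenylase, stood at 118, 99.65 and 49.3 FPKM in the libraries labelled Zak-/- and at 124, 105.0 and 46.3 FPKM in the WT libraries. Most of its change came after 6 h: the log2 difference at 6 h was -0.24 under both labels, and at 48 h Btg2 was 2.37-fold lower in the libraries labelled Zak-/- and 2.64-fold lower in the WT libraries. Btg1 (chr10:96617001-96622813), which with Btg2 keeps messages low in resting mouse T cells through deadenylation, stood at 208, 171 and 139 FPKM in the libraries labelled Zak-/- and at 215, 208 and 129.9 FPKM in the WT libraries. It did not pass 2-fold, at 1.499-fold lower at 48 h in the libraries labelled Zak-/- and 1.65-fold lower in the WT libraries, and became the second most abundant of the 10. Btg1 has 2 RefSeq copies on chromosome X, Btg1b and Btg1c, so its value is uncertain to the extent that reads were shared among them. Btg1b was listed at 0.15 FPKM or less in every library and Btg1c was not analysed here.

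The bases before the starts of these 3 genes are shown because the genes share a family and a direction and differ in size and timing of change. Each window holds the 250 bases before a RefSeq start (GRCm38.p6) on the gene's strand, at chr11:94211204-94211453 on the plus strand for Tob1, chr1:134079156-134079405 on the minus strand for Btg2 and chr10:96616751-96617000 on the plus strand for Btg1, with capitals for the same 6 motifs; Tob1's start here lies inside the gene's listed span.
Tob1: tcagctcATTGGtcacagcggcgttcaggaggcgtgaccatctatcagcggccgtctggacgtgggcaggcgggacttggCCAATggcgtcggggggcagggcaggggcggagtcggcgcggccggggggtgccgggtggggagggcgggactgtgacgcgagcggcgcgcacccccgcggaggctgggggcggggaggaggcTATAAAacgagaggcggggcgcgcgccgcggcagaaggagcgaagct
Btg2: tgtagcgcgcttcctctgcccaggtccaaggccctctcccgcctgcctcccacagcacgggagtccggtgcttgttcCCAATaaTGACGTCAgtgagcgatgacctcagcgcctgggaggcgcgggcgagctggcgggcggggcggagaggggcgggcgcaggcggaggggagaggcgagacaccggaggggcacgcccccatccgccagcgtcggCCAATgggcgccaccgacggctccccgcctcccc
Btg1: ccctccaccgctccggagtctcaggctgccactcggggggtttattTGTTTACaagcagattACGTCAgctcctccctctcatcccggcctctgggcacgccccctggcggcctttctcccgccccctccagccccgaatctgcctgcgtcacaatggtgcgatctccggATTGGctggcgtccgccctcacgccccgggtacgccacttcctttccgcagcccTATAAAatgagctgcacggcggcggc
Each window held the CCAAT motif, in Tob1's and Btg2's in 2 places and in Btg1's in 1. Tob1's and Btg1's also held the TATA motif, beginning 47 bases before the start in Tob1 and 26 in Btg1, whereas Btg2's did not. Btg2's held TGACGTCA, which matches the CRE motif on both strands, from 166 bases before the start. Btg1's held the CRE motif on the minus strand 188 bases before the start, and the forkhead motif 204 bases before it, the single match to that motif among the 20 windows of the members.

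The order of Tob1 and Tob2 turned over with stimulation. Tob2, a close paralog that also binds the deadenylase, stood at 22.1, 38.6 and 46.1 FPKM in the libraries labelled Zak-/- and at 26.6, 32.7 and 45.1 FPKM in the WT libraries, which at 48 h was 2.03-fold higher than at 0 h in the libraries labelled Zak-/- and 1.67-fold in the WT libraries. The ratio of Tob1 to Tob2 was 2.90, 0.78 and 0.27 at 0, 6 and 48 h in the libraries labelled Zak-/- and 2.32, 0.84 and 0.22 in the WT libraries. Tob1 was thus above Tob2 at rest and below it at 6 and 48 h under both labels. Of the summed FPKM of Tob1, Tob2, Btg1, Btg2 and Btg3, Btg1 made 48.7%, 47.4% and 52.1% in the libraries labelled Zak-/- and 48.6%, 52.4% and 51.6% in the WT libraries. Tob1 made 15.02%, 8.38% and 4.66% in the libraries labelled Zak-/- and 14.0%, 6.88% and 3.995% in the WT libraries. That sum was 428, 360.3 and 266 FPKM in the libraries labelled Zak-/- and 442, 397 and 252 FPKM in the WT libraries.

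**Figure D3:**
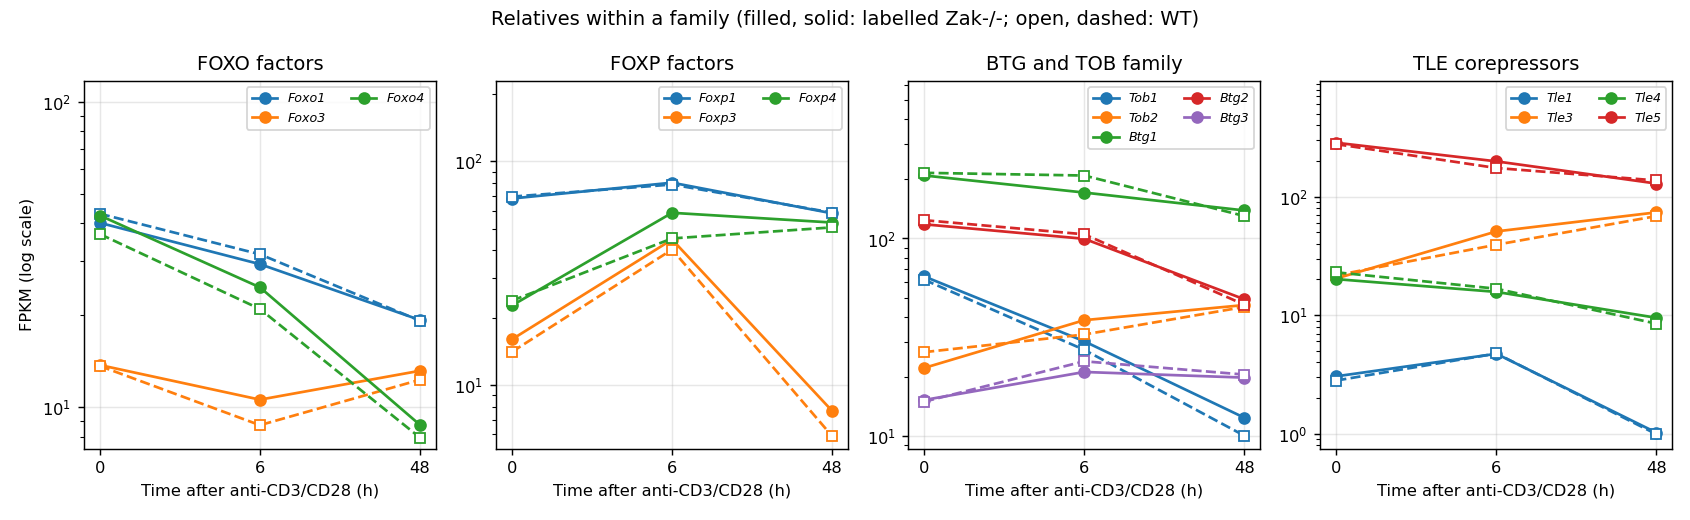
FPKM (log axis) at 0, 6 and 48 h of the FOXO, FOXP, BTG and TOB, and TLE genes, with the libraries labelled Zak-/- as filled points and solid lines and the WT libraries as open points and dashed lines, 1 library per point. Tob1 lies above Tob2 at 0 h and below it at 6 and 48 h, Foxo3 lies below Foxo4 at 0 h and above it at 48 h, and Tle3 and Tle5 draw together.

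The CCR4-NOT and poly(A) machinery that these proteins recruit was listed as 16 genes. Of the 16, 2 were at least 2-fold lower and 2 higher at 48 h than at 0 h under each label, with a median log2 difference of -0.08 in the libraries labelled Zak-/- and 0.03 in the WT libraries, near that of all genes. Over all genes 12.0% were lower and 18.4% higher in the libraries labelled Zak-/- and 12.3% lower and 17.8% higher in the WT libraries, so the list's counts are near the background. The lower genes were Pan2 and Pan3, which together form the other main deadenylase, at 2.62-fold and 2.35-fold in the libraries labelled Zak-/- and 2.82-fold and 2.52-fold in the WT libraries. The higher genes were Cnot9, a CCR4-NOT subunit, and Pabpc4, a poly(A)-binding protein, at 2.20-fold and 2.52-fold in the libraries labelled Zak-/- and 2.42-fold and 2.91-fold in the WT libraries. The catalytic subunits Cnot6, Cnot6l, Cnot7 and Cnot8 did not pass 2-fold. Cnot7, which BTG and TOB proteins bind, lay between 33.4 and 38.8 FPKM in all 6 libraries.

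The 6 genes that passed 2-fold at 48 h differed in how much of the change was present at 6 h. Measured as the 6 h log2 difference over the 48 h one, this share was 56.0% for Lef1, 46.6% for Tob1, 42.8% for Foxo1, 32.0% for Tcf7, 19.4% for Btg2 and 10.7% for Satb1 in the libraries labelled Zak-/-. In the WT libraries it was 50.0% for Lef1, 45.9% for Tob1, 38.2% for Foxo1, 34.9% for Tcf7, 16.8% for Btg2 and 17.4% for Satb1. Lef1 and Tob1 thus had the highest shares and Btg2 and Satb1 the lowest under both labels, with Foxo1 and Tcf7 between them. Over all genes at least 2-fold lower at 48 h the median share was 39.9% in the libraries labelled Zak-/- (1246 genes) and 40.6% in the WT libraries (1273 genes). Its 10th and 90th percentiles were 11.5% and 66.4% in the libraries labelled Zak-/- and 14.5% and 65.9% in the WT libraries. Satb1 in the libraries labelled Zak-/- lay below the 10th percentile.

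The question of the labels was whether the resting program or its course differed with Zak. Between the libraries labelled Zak-/- and the WT libraries, 0 of 10 members passed 2-fold at 0 h, 6 h or 48 h, where the background was 0.0483% lower and 0.222% higher at 0 h, 0.126% lower and 0.116% higher at 6 h, and 0.435% lower and 1.80% higher at 48 h. The members' median log2 difference was -0.04 at 0 h, 0.05 at 6 h and 0.09 at 48 h, beside -0.01, -0.02 and -0.01 for all genes. The widest member difference was 1.07-fold at 0 h (Foxo1), 1.22-fold at 6 h (Btg1) and 1.21-fold at 48 h (Tob1). The 95th percentile of the same size over all genes was 1.26-fold, 1.35-fold and 1.41-fold, so every member lay inside it at each time.

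By direction, at 48 h 7 of 10 members were above 0 as deposited and 1 of 10 after median ratio scaling, which moved the median of all genes by -0.16. Counted from the median of all genes the numbers were 8 and 7 of 10. Rescaling to a common sum gave 6 of 10 above 0, upper quartile scaling 8 of 10, and either other pseudocount 7 of 10. Tob1 had the highest log2 difference at 48 h, 0.28 (12.4 FPKM in the library labelled Zak-/- and 10.1 FPKM in the WT library), and Satb1 the lowest, -0.22 (50.8 FPKM in the library labelled Zak-/- and 59.4 FPKM in the WT library). At 6 h Foxo3 was highest at 0.25 (10.6 FPKM in the library labelled Zak-/- and 8.72 FPKM in the WT library) and Btg1 lowest at -0.28 (171 FPKM in the library labelled Zak-/- and 208 FPKM in the WT library). The B cell marker sum was also higher in the library labelled Zak-/- at each time, and its part in these small differences was not tested.

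With the libraries of each time as a pair, a fit of the label over the 3 times gave 0 of 10 members past an adjusted p of 0.05 (limma, Benjamini-Hochberg, 2 residual degrees of freedom), where 0.00966% of all genes passed, 1 of 10347. In the same limma fit 515 of the 10347 genes and 0 of the 10 members had an unadjusted p under 0.05. The 515 are about the share that this threshold gives when no gene differs. The smallest adjusted p of a member was 0.844. Tob1 had the widest fitted difference, 0.16 with a standard error of 0.08 on the log2 scale. As deposited, Tob1 and Foxo3 were higher in the library labelled Zak-/- at 3 of 3 times, and Lef1 was lower in it at 3 of 3. Tob1 and Lef1 kept these directions under the other pseudocounts and scalings, and Foxo3 did not. Over these settings Foxo3's log2 difference ran from -0.03 to 0.02 at 0 h and from -0.07 to 0.10 at 48 h. The fit takes the label's difference as the same at each time, and a p that misses the threshold does not show that the levels were alike. Its residual is the variation of that difference over the 3 times, since no group had a replicate. The p therefore does not measure the spread between mice of a genotype.

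The response itself, the difference from 0 h in the libraries labelled Zak-/- minus that in the WT libraries, had a median size of 0.10 over the members at 6 h and 0.12 at 48 h, beside 0.16 and 0.12 over all genes. At 48 h it was lowest for Satb1, at -0.26, and highest for Tob1, at 0.22. All lay within the 95th percentile of all genes, 0.52 at 6 h and 0.56 at 48 h.

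**Figure D4:**
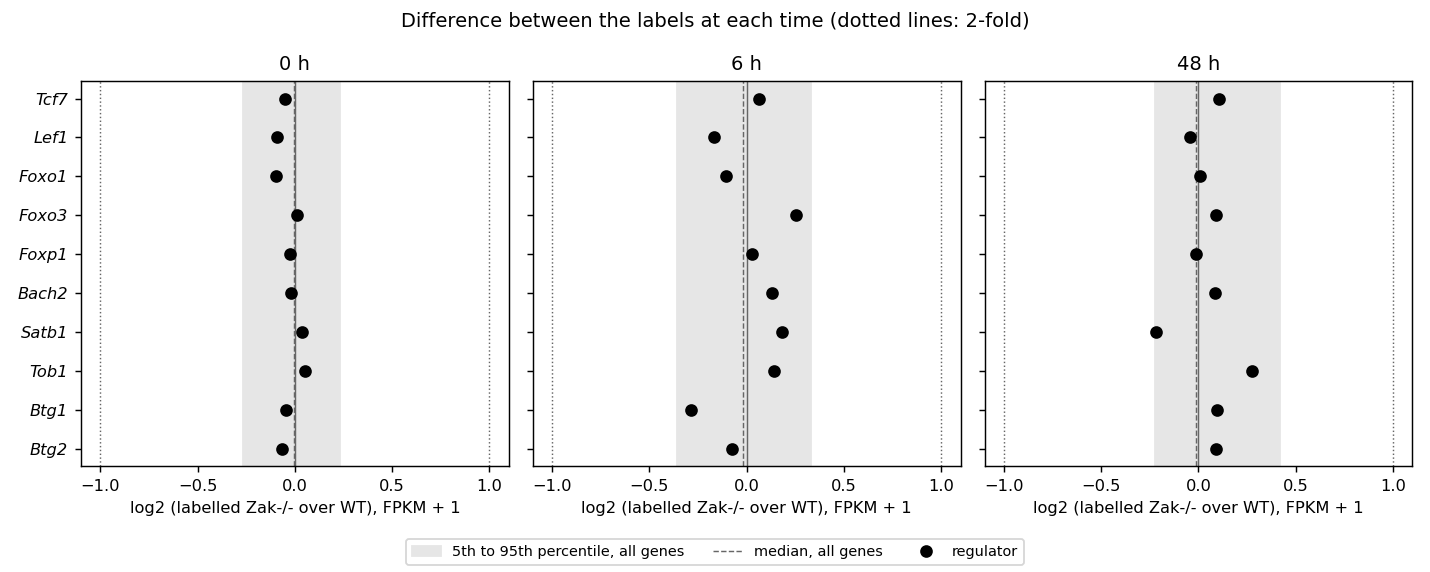
Difference of log2(FPKM + 1) between the library labelled Zak-/- and the WT library for each of the 10 genes at 0, 6 and 48 h, 1 library per group, with the 5th to 95th percentile of all genes as a grey band and their median dashed. Every point lies within 0.29 of 0 and far from the 2-fold threshold, with Tob1 at 0.28 and Satb1 at -0.22 at 48 h.

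Genes tied to the FOXO factors in T cells were mostly lower at 48 h. Of 12 such genes, 6 were at least 2-fold lower at 6 h than at 0 h in the libraries labelled Zak-/- and 4 in the WT libraries. At 48 h 9 were lower in the libraries labelled Zak-/- and 10 in the WT libraries, with none higher at either time. Of all genes at 6 h, 1.52% were lower and 9.08% higher in the libraries labelled Zak-/-. The WT shares at 6 h were 1.39% and 8.93%. Of all genes at 48 h, 12.0% were lower and 18.4% higher in the libraries labelled Zak-/-. The WT shares at 48 h were 12.3% and 17.8%. The list's median log2 difference at 48 h was -1.74 in the libraries labelled Zak-/-, beside 0.06 for all genes. In the WT libraries it was -1.84, beside 0.00 for all genes. Il7r, the receptor for the survival cytokine IL-7, stood at 556, 235 and 5.19 FPKM in the libraries labelled Zak-/- and at 525, 264 and 4.11 FPKM in the WT libraries. S1pr1, a sphingosine phosphate receptor needed for exit from lymphoid organs, was 25.3-fold lower at 48 h in the libraries labelled Zak-/- and 25.6-fold lower in the WT libraries. Klf2, the factor that drives S1pr1, stood at 312, 187 and 45.5 FPKM in the libraries labelled Zak-/- and at 317, 174 and 31.3 FPKM in the WT libraries. Bcl2l11, which encodes the death protein BIM, and Sesn3 did not pass 2-fold at 48 h under either label, nor did Irs2 in the libraries labelled Zak-/-.

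Of 11 genes that control FOXO proteins, 3 were at least 2-fold lower and 1 was higher at 48 h than at 0 h under each label. The background was 12.0% of all genes lower and 18.4% higher in the libraries labelled Zak-/-, and 12.3% and 17.8% in the WT libraries. Among the lower genes, the kinase Sgk1 was 2.63-fold lower in the libraries labelled Zak-/- and 2.96-fold lower in the WT libraries, and the PI3K subunit gene Pik3r1 was 2.51-fold lower in the libraries labelled Zak-/- and 2.54-fold lower in the WT libraries. Skp2, which marks FOXO1 for degradation, was 3.07-fold higher in the libraries labelled Zak-/- and 3.17-fold higher in the WT libraries. RNA levels carry no information on the phosphorylation or place of the FOXO proteins.

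Of 19 other quiescence and growth brakes, 17 had a mean of at least 1 FPKM. At 48 h 9 of the 17 were at least 2-fold lower and 2 higher than at 0 h under each label. Beside them, 12.0% of all genes were lower and 18.4% higher in the libraries labelled Zak-/-, and 12.3% and 17.8% in the WT libraries. At 6 h 2 of the 17 were lower and 3 higher under each label. Of all genes at 6 h, 1.52% were lower and 9.08% higher in the libraries labelled Zak-/-, and 1.39% and 8.93% in the WT libraries. The lower brakes at 6 h were Cdkn1b under both labels, Pik3ip1 in the libraries labelled Zak-/- and Cdkn2d in the WT libraries. Pik3ip1 lay on the threshold, 2.003-fold lower in the libraries labelled Zak-/- and 1.999-fold lower in the WT libraries. Cdkn2d was 1.95-fold lower in the libraries labelled Zak-/- and 2.24-fold lower in the WT libraries. The lowest at 48 h were Pik3ip1, an inhibitor of PI3K, at 13.2-fold lower in the libraries labelled Zak-/- and 15.3-fold lower in the WT libraries, then Klf2, then Ets1 and Cdkn1b in either order. The higher genes at 48 h were Zfp36l1, which promotes decay of AU-rich messages, and Cdkn2c, an inhibitor of CDK4 and CDK6. Cdkn2c stood at 2.78, 1.63 and 27.1 FPKM in the libraries labelled Zak-/- and at 2.54, 2.46 and 22.0 FPKM in the WT libraries. Zfp36, Zfp36l1 and Vsir, the gene of the checkpoint receptor VISTA, were the higher genes at 6 h. Klf2 and Cdkn1b also stand on the FOXO-linked list.

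**Figure D5:**
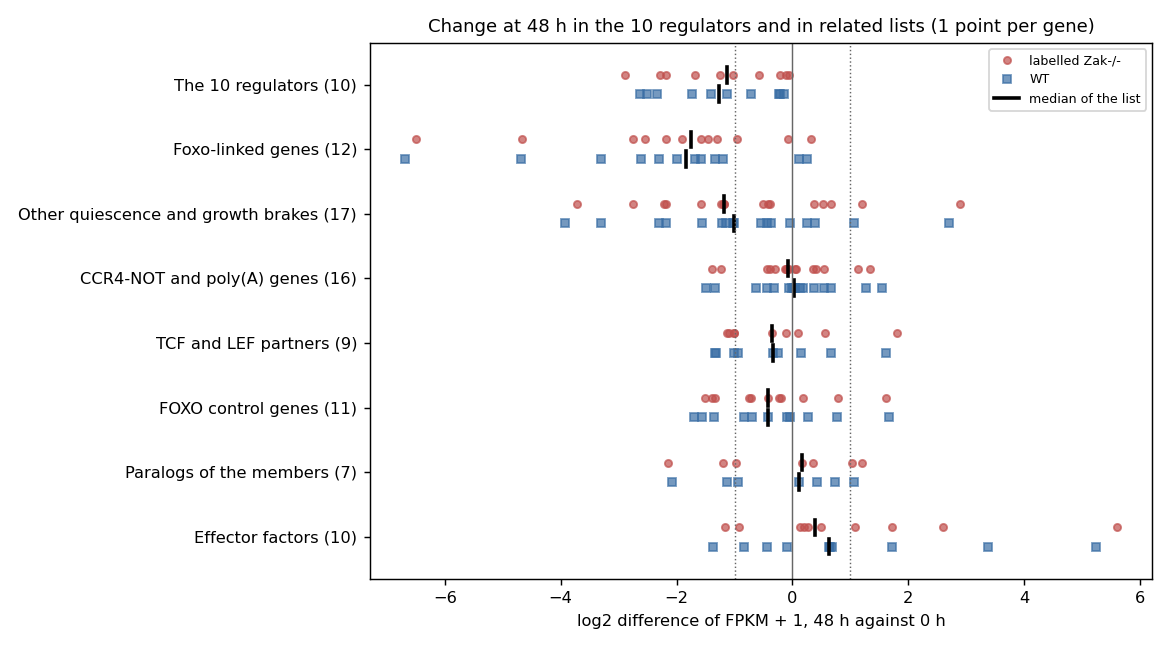
Difference of log2(FPKM + 1) between 48 h and 0 h for the 10 genes and for each related list, 1 point per gene of mean 1 FPKM or more, for the libraries labelled Zak-/- and the WT libraries. The FOXO-linked list has its median at -1.74 in the libraries labelled Zak-/- and -1.84 in the WT libraries, the 10 genes have theirs at -1.13 in the libraries labelled Zak-/- and -1.26 in the WT libraries, and the CCR4-NOT list lies around 0.

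Members were also set against each other and against 8020 genes of mean 5 FPKM or more by the root mean square difference of their log2(FPKM + 1), centred on each gene's own mean, over the 6 libraries. Of the 45 pairs of members, Foxp1 and Bach2 were nearest at 0.16, followed by Tcf7 and Tob1 at 0.16 and Foxo1 and Btg1 at 0.18, and Foxo3 and Satb1 were farthest apart at 1.28. Outside the set, the gene nearest to Tcf7 was Ets1 at 0.049, to Lef1 Traf3ip3, to Foxo1 Ggps1, to Foxo3 Bcr, to Foxp1 Slc39a7, to Bach2 Poldip3, to Tob1 Cdkn1b at 0.090, to Btg1 Tpt1 and to Btg2 Cdip1. Second in order came Scml4, Sesn1, Rabgap1, Pip4k2b, Tatdn2, Cog8, Phlpp1, Lamp2 and Ankrd16 for the same members.

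Satb1 had the fewest genes close by this distance: 4 lay within 0.2 of it, led by H2-Q7 at 0.121 and Tnfaip3 at 0.123. Within 0.2 of Tob1 lay 68 genes, and within 0.2 of Bach2 1935. The distance is not scaled to the size of a gene's change. Over the 6 libraries Satb1 spanned 7.39-fold, Tob1 5.90-fold and Bach2 1.16-fold. The counts depend on that size and do not show that the shape of a pattern is rare. H2-Q7 has near-identical neighbours in its family, so its reads may be shared among them. Nearness over 6 libraries of 3 times is a description of pattern alone. With a pseudocount of 5 FPKM, both nearest genes were kept for Foxo3 and Bach2, 1 of 2 for Tcf7, Lef1, Foxo1, Foxp1, Satb1, Tob1 and Btg1, and 0 for Btg2.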

How the data were processed

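Per the labels, 6 RNA-seq libraries were measured, 1 for each of 2 genotype labels at 0, 6 and 48 h. The authors deposited 1 table of FPKM per NCBI gene; Bowtie, RSEM and mm10 are named in the submitters' processing notes, with versions and strand not given in the sources used here. FPKM hides the depth, so no count test and no counting interval could be made. Gene numbers were matched to RefSeq symbols (18326 of 18446, with 120 unmatched). Differences were taken on log2(FPKM + 1) and called at 2-fold among 10347 genes of mean 1 FPKM or more. With 1 library per group no contrast of single libraries was tested. Added after the data were seen, the label was tested with limma 3.58.1 in R 4.3.3 on log2(FPKM + 1) with label and time as terms and p-values adjusted by Benjamini-Hochberg. Alternatives were pseudocounts of 0.1 and 5, no filter or a mean of 5 FPKM, 1.5-fold and 4-fold rules, and rescaling to a common upper quartile, median ratio or sum. The members and the related lists were chosen with earlier results of these data known. All 10 members are named, with up to 4 genes of the widest change each way from each list and the 2 nearest genes per member; Skp1, Ctnnb1, Cnot7 and other genes given for context were chosen after their values were seen. Some list genes that were counted are not reported here by name. Promoter bases are RefSeq's. Scripts in Python 3.11.15 with matplotlib 3.10.9, scipy 1.17.1, pandas 2.3.3 and numpy 2.4.6 were checked on simulated data.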

Additional observations from a re-analysis of the deposited data

How the results depend on the processing

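Each group had 1 library, so no replicate numbers could form a block, and no library could be left out. A fit that paired the labels by time was added after the data were seen; it gave 0 of 10 members past an adjusted p of 0.05 (limma, Benjamini-Hochberg). The count of members lower at 48 h than at 0 h was 6 under each label and became 3 under each with a 4-fold rule (Satb1, Tob1 and Tcf7). The count lower at 6 h in the libraries labelled Zak-/- was 1 and became 0 with a pseudocount of 5 FPKM, 0 after median ratio scaling, 2 after upper quartile scaling, 3 at 1.5-fold and 0 at 4-fold. In the WT libraries it was 1 and became 4 at 1.5-fold and 0 at 4-fold. The count lower at 48 h than at 6 h was 4 under each label and became 1 under each at 4-fold, and 7 in the WT libraries at 1.5-fold. The members' median log2 difference between the labels at 48 h was 0.09 and became -0.0795 after median ratio scaling, which moved the median of all genes by -0.16; the cause was not tested. The same scaling moved the median of all genes between 48 h and 6 h by -0.14 in the libraries labelled Zak-/-, and a common sum moved it between 48 h and 0 h by -0.12 there. The widest shift elsewhere was -0.10. Of the counts recomputed over the members and lists under these alternatives, 548 lay within 1.5 times the count reported and 118 did not. Unknown depth limits the reading of every gene of low FPKM.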

Other observations

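A list of 12 genes of effector cells, which holds effector factors and the protease gene Gzmb, had 10 genes of mean 1 FPKM or more. At 48 h against 0 h, 4 of these were at least 2-fold higher and 1 lower in the libraries labelled Zak-/-, and 3 were higher and 1 lower in the WT libraries, beside 18.4% of all genes higher and 12.0% lower in the libraries labelled Zak-/- and 17.8% higher and 12.3% lower in the WT libraries. The higher genes were Irf4, Gzmb and Hif1a under both labels and Bhlhe40 in the libraries labelled Zak-/-. Irf4, which couples receptor signal strength to effector fate, stood at 1.92, 235 and 141 FPKM at 0, 6 and 48 h in the libraries labelled Zak-/- and at 2.89, 209 and 145 FPKM in the WT libraries. Hif1a, a factor of glycolytic metabolism, stood at 46.7, 90.4 and 156 FPKM in the libraries labelled Zak-/- and at 51.0, 98.5 and 169 FPKM in the WT libraries. Prdm1, the gene of the terminal differentiation factor BLIMP-1, was the lower gene, at 1.61, 1.11 and 0.16 FPKM in the libraries labelled Zak-/- and at 2.02, 1.26 and 0.17 FPKM in the WT libraries. Gzmb, the gene of the cytotoxic protease granzyme B, stood at 0.22, 0.60 and 6.42 FPKM in the libraries labelled Zak-/- and at 0.78 and 9.36 FPKM at 6 and 48 h in the WT libraries, where it was listed at 0 at 0 h. Batf lay between 16.8 and 22.6 FPKM in all 6 libraries.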
